A study of Yarrowia lipolytica with 9 samples.

Results

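The 6 genes described here encode the enzymes of upper glycolysis in the yeast *Yarrowia lipolytica*, together with the phosphatase that runs against them. They were chosen by enzyme name, by a rule that uses no measured value, though with earlier results of these data known: hexokinase (YALI0B22308g), glucokinase (YALI0E15488g), glucose-6-phosphate isomerase (YALI0F07711g), phosphofructokinase (YALI0D16357g), fructose-1,6-bisphosphatase (YALI0A15972g) and aldolase (YALI0E26004g). All 6 have a row among the 6170 genes of the deposited table, and all 6 passed the filter on low values. The libraries profile mRNA of W29, a wild-type strain, grown in bioreactors in medium held at a pH of 2.0, of 4.0 or of 6.0. There were 3 bioreactors for each pH, and cells were taken at hour 50. Every culture had the same medium, glucose at 50 g/L with yeast nitrogen base at 1.7, yeast extract at 1.5 and ammonium sulfate at 1 g/L, so pH was the labelled difference between the groups, and pH 2.0 served as the reference. The table gives locus tags without names, coordinates or sequence, so enzyme names are background knowledge of these loci.

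Upper glycolysis turns glucose into triose phosphates. Hexokinase and glucokinase put a phosphate on glucose, and the isomerase turns glucose 6-phosphate into fructose 6-phosphate. Phosphofructokinase adds another phosphate in a step that is in effect one-way, and aldolase splits the product. Fructose bisphosphatase removes that phosphate again and serves gluconeogenesis, the making of sugar phosphates from non-sugar carbon. Glucose 6-phosphate is also where the pentose phosphate pathway leaves, a source of NADPH for making lipid in this oil-storing yeast.

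Values are CPM, that is, counts scaled by the effective size of each library, which the authors computed with edgeR. A CPM level is not divided by gene length, so levels of different genes are not ranked here. The libraries held 12974822 to 17701766 reads, and the 6 genes had 1187 to 23553 reads per library, which puts the counting error of a single value at 0.652% to 2.90%; this covers counting error only. The pH 2.0 library of replicate A lay apart from the other libraries of its pH on the first principal component (-47.6 against -37.0 and -37.9), so results are also given without it where it decides them. The 9 libraries are bulk samples, in which a change in some of the cells and a smaller change in all of them cannot be told apart.

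The glucose-phosphorylating enzymes were lower at pH 6.0 than at pH 2.0, the isomerase that follows them was higher, and phosphofructokinase was not called in any comparison. Isomerase mRNA rose at both steps of pH, though the first step was not called under quantile normalization. Hexokinase mRNA was lower at pH 4.0 and 6.0 than at pH 2.0, while glucokinase mRNA fell between pH 4.0 and 6.0. Fructose bisphosphatase was higher at pH 4.0 and 6.0 than at pH 2.0 under the deposited scaling. Neither difference was called with equal totals or under quantile normalization. Both were called by DESeq2, with its own scaling, and by edgeR, whose scaling matched the deposited one. The moderated F test of limma, with p-values adjusted by Benjamini-Hochberg over 6165 genes and a call at an adjusted p under 0.05, called 4 of the 6 genes as differing among the 3 pH values, against 84.0% of all genes tested.

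Hexokinase phosphorylates glucose and fructose, and in *Y. lipolytica* growth on fructose depends on it. Its level was 126, 111 and 121 CPM in replicates A, B and C at pH 2.0. At pH 4.0 the same replicates had 95.7, 104 and 92.4 CPM, and at pH 6.0 they had 93.8, 104 and 96.5 CPM. All pH 2.0 libraries lay above all others, with a gap of 7.14 CPM to pH 4.0 and 7.37 CPM to pH 6.0, while the pH 4.0 and pH 6.0 libraries overlapped. On the log2(CPM + 1) scale hexokinase fell by 0.29 when pH 4.0 is set against pH 2.0 (SE 0.08, adjusted p = 0.00699, n = 3 per group, limma). From pH 2.0 to 6.0 it fell by 0.28 (SE 0.08, adjusted p = 0.00708), which is a percent change of -17.7. Between pH 4.0 and 6.0 the difference was 0.01 (95% interval -0.16 to 0.18), so a further change within that interval is not excluded. Both calls against pH 2.0 held in each of the 21 alternative analyses.

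Glucokinase phosphorylates glucose but not fructose. At pH 2.0 its level was 803, 895 and 876 CPM in replicates A, B and C. The pH 4.0 libraries had 1001, 1014 and 865 CPM, and those of pH 6.0 had 648, 683 and 686 CPM. The pH 6.0 libraries lay below all others, by 117 CPM or more, while pH 2.0 and pH 4.0 overlapped because replicate C of pH 4.0 sat among the pH 2.0 libraries. Glucokinase had a log2 fold change of -0.51 from pH 4.0 to 6.0 (SE 0.08, adjusted p = 0.000516), a percent change of -29.8. In absolute size it exceeded the change of 74.5% of genes in that comparison. Against pH 2.0 the log2 fold change at pH 6.0 was -0.35 (SE 0.08, adjusted p = 0.00241), a percent change of -21.5. These calls held in each of the 21 alternatives, with log2 values from -0.58 to -0.47 and from -0.71 to -0.32. The difference between pH 4.0 and 2.0 was 0.16 (95% interval -0.02 to 0.34) and was not called. Its sign depended on the scaling: it was -0.047 with equal totals, not called, and -0.17 under quantile normalization, called lower. Without pH 4.0 replicate C, under the deposited scaling, it was called higher (0.23).

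**Figure D1:**
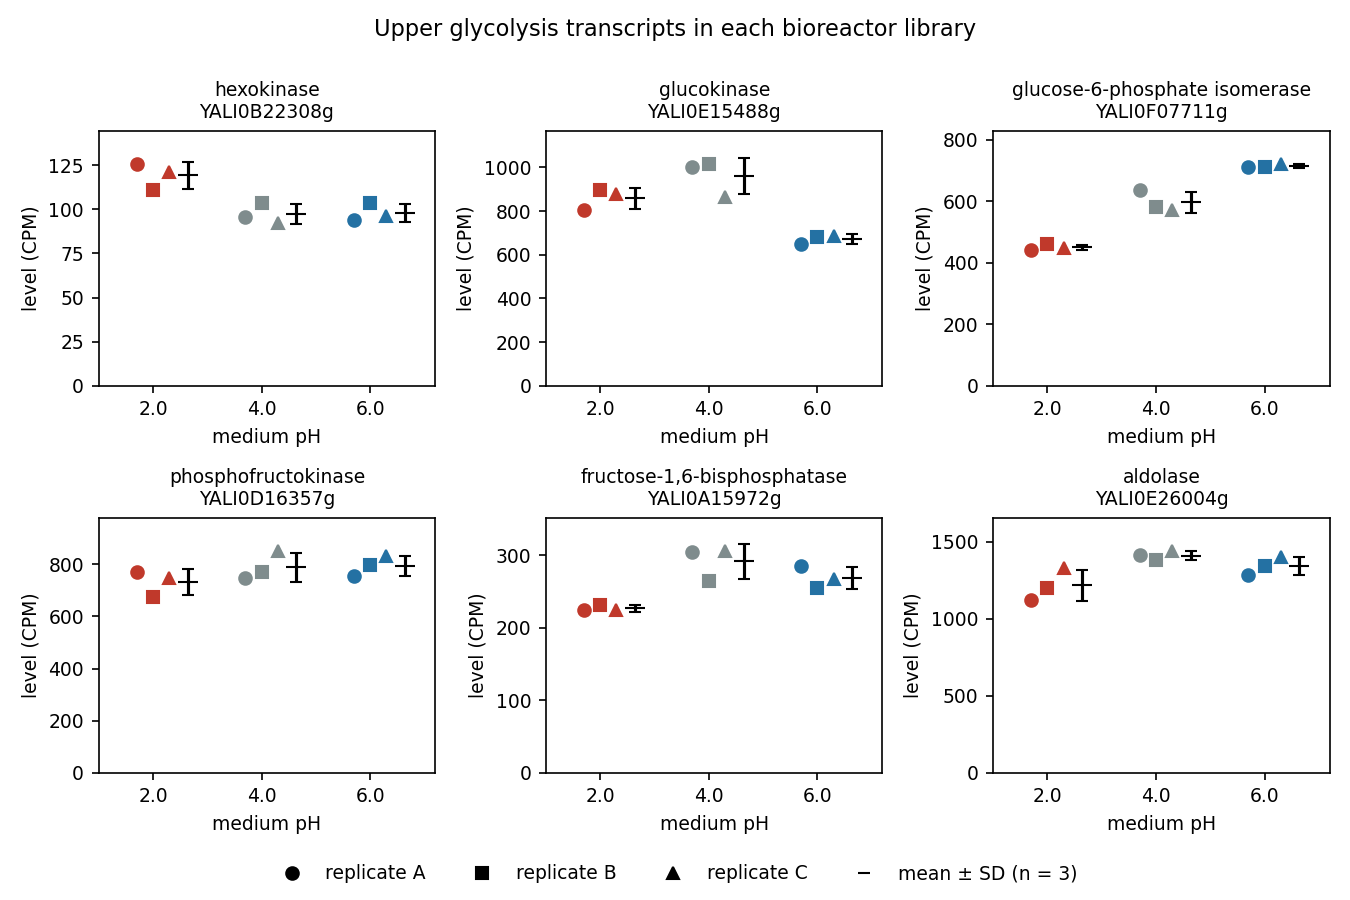
Level of each enzyme's mRNA in CPM (y axis, from 0) by medium pH (x axis: 2.0, then 4.0, then 6.0), with 1 marker per bioreactor library, its shape giving the replicate letter, and bars giving the mean and SD of the 3 libraries. Isomerase goes up at each step of pH, from a mean of 450 to 596 and 714 CPM, glucokinase is lowest at pH 6.0, and hexokinase is highest at pH 2.0.

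The contrast of both steps of pH, that is, the change from pH 4.0 to 6.0 minus the change from pH 2.0 to 4.0, tests whether the response bends at pH 4.0. It called 2 of the 6 genes, against 50.4% of all genes. Glucokinase had a contrast of -0.67 (SE 0.14, adjusted p = 0.00304), held in all 20 alternatives in which it was computed, and fructose bisphosphatase one of -0.47 (SE 0.13, adjusted p = 0.0132). Hexokinase had 0.30 (SE 0.13, adjusted p = 0.0836) and was not called. The fructose bisphosphatase call was lost without pH 4.0 replicate A (-0.40), under equal totals (-0.27) and under quantile normalization (-0.31).

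Glucose-6-phosphate isomerase stands where glycolysis and the pentose phosphate pathway part. Its level was 442, 460 and 447 CPM in replicates A, B and C at pH 2.0, rose to 636, 580 and 572 CPM at pH 4.0, and reached 713, 710 and 720 CPM at pH 6.0. No libraries of different pH overlapped, and the spread at pH 6.0 was an SD of 5.35 CPM (0.749% of the mean), below the counting error of 0.975% that its reads allow. The log2 fold change was 0.40 from pH 2.0 to 4.0 (SE 0.06, adjusted p = 0.000298) and 0.26 from pH 4.0 to 6.0 (SE 0.06, adjusted p = 0.00599). From pH 2.0 to 6.0 it was 0.67 (SE 0.06, adjusted p = 5.21e-06), a 1.59-fold difference, larger in absolute size than that of 62.2% of genes. The change from pH 2.0 to 6.0 and that from pH 4.0 to 6.0 were called in each of the 21 alternatives. The change from pH 2.0 to 4.0 was called in 20, and lost under quantile normalization (0.10). The step contrast was -0.14 (95% interval -0.39 to 0.10, adjusted p = 0.304).

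Phosphofructokinase, the committing step of glycolysis, had levels of 771, 675 and 748 CPM in replicates A, B and C at pH 2.0. At pH 4.0 it had 745, 768 and 850 CPM, and at pH 6.0 753, 798 and 830 CPM. The 3 groups overlapped throughout. The log2 difference was 0.11 between pH 4.0 and 2.0 (95% interval -0.07 to 0.28), 0.01 between pH 6.0 and 4.0 (-0.16 to 0.19) and 0.12 between pH 6.0 and 2.0 (-0.06 to 0.30). None was called (adjusted p = 0.261, 0.910 and 0.199), nor was any called in the alternatives, where the last ranged from -0.15 to 0.16 and so changed sign. The F test gave an adjusted p of 0.316.

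Fructose-1,6-bisphosphatase catalyses the reverse of that step. Its level was 225, 232 and 224 CPM in replicates A, B and C at pH 2.0, then 305, 264 and 306 CPM at pH 4.0, and 286, 255 and 267 CPM at pH 6.0. The pH 2.0 libraries lay below all others, and those of pH 4.0 and 6.0 overlapped. Its level rose from pH 2.0 to 4.0 with a log2 fold change of 0.36 (SE 0.08, adjusted p = 0.00192), 1.28-fold, and was higher at pH 6.0 than at pH 2.0 by 0.24 (SE 0.08, adjusted p = 0.0137), 1.18-fold. The difference between pH 6.0 and 4.0 was -0.11 (95% interval -0.28 to 0.05). With the libraries scaled to equal totals both calls were lost (0.15 and 0.028), as they were under quantile normalization (0.11 and -0.087, the latter with the opposite sign). The call at pH 6.0 was also lost without pH 6.0 replicate A (0.20).

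Aldolase splits fructose 1,6-bisphosphate, and serves both glycolysis and gluconeogenesis. It stood at 1122, 1198 and 1325 CPM in replicates A, B and C at pH 2.0. In the pH 4.0 libraries it stood at 1413, 1377 and 1437 CPM, and in those of pH 6.0 at 1283, 1340 and 1403 CPM. The pH 4.0 libraries lay above those of pH 2.0, while the pH 6.0 libraries overlapped with both. Aldolase was called higher at pH 4.0 than at pH 2.0 (log2 0.22, SE 0.08, adjusted p = 0.0302). That call lay near the threshold, and the log2 difference ran from 0.16 to 0.28 without single libraries. The call was lost without replicate A (0.16) or B (0.21) of pH 2.0. It was also lost without replicate A (0.21), B (0.23) or C (0.20) of pH 4.0. Equal totals (0.0093) and quantile normalization (-0.13) lost it too. At pH 6.0 aldolase was not called against pH 2.0 (0.15, 95% interval -0.03 to 0.32) or against pH 4.0 (-0.07, -0.24 to 0.10).

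Counted over the group, 4 of the 6 genes were called between pH 6.0 and 2.0, against 73.0% of all genes: 2 higher (background 35.1%) and 2 lower (37.9%). Between pH 4.0 and 2.0, 4 were called, against 63.4%: 3 higher (30.8%) and 1 lower (32.6%). From pH 4.0 to 6.0, 2 were called, against 51.5%: 1 higher (25.7%) and 1 lower (25.8%). The shares of the 6 genes called are thus near or below the background. Their median absolute log2 difference was 0.26 between pH 6.0 and 2.0, where that of all 6165 genes was 0.49, and 0.25 against 0.39 between pH 4.0 and 2.0. From pH 4.0 to 6.0 it was 0.09 against 0.30. The pairwise comparisons share libraries and are not independent of each other.

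Which genes are called against pH 2.0 depended on how the libraries were scaled. The summed CPM of all genes was lower at pH 2.0 than at the other pH values, 904216 to 910806 against 1010486 to 1094635, so scaling to equal totals moved the median log2 difference of all genes from -0.04 to -0.25 for pH 6.0 against 2.0 and from -0.02 to -0.22 for pH 4.0 against 2.0. Over all genes this turned 2164 higher and 2334 lower calls between pH 6.0 and 2.0 into 1522 and 3005, and 1900 higher and 2007 lower calls between pH 4.0 and 2.0 into 1267 and 2873. Among the 6 genes it left 1 higher and 2 lower at pH 6.0 (isomerase, hexokinase and glucokinase), and 1 higher and 1 lower at pH 4.0 (isomerase and hexokinase). Relative to the shifted median, isomerase stayed above and both kinases below at pH 6.0. Quantile normalization gave 1 higher and 2 lower at pH 6.0, where all genes had 2110 higher and 2201 lower calls. At pH 4.0 it gave 0 higher and 2 lower, where all genes had 1906 higher and 1764 lower calls.

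**Figure D2:**
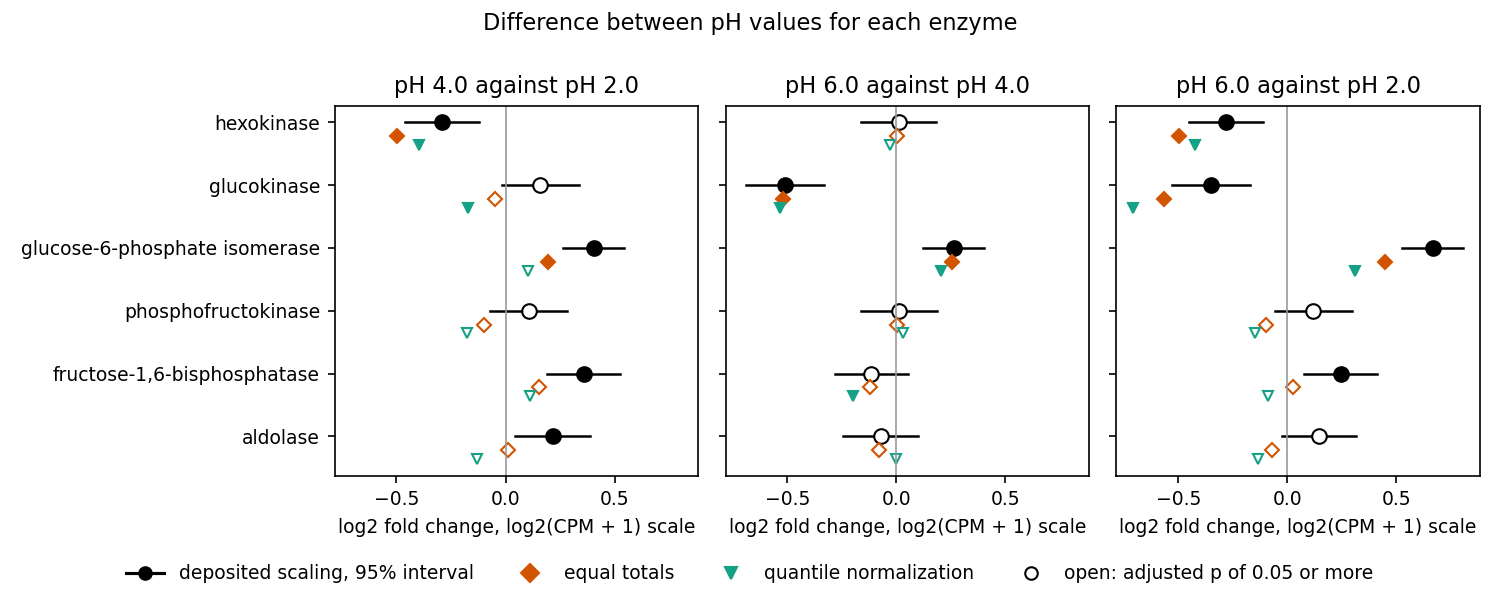
Log2 fold change on the log2(CPM + 1) scale (x axis) of each enzyme (y axis) for the 3 comparisons; circles and lines are the values with 95% intervals under the deposited scaling, diamonds the values with equal totals, triangles those under quantile normalization, and open markers have an adjusted p of 0.05 or more. Hexokinase lies left of 0 under all 3 scalings in both comparisons with pH 2.0 and glucokinase in both comparisons with pH 6.0, isomerase lies right of 0 in all panels, and fructose bisphosphatase and aldolase lose their filled markers against pH 2.0 when the scaling changes.

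Ratios of transcripts within a library are not changed by a scaling factor applied to the whole library, though quantile normalization, which was not applied to them, would change them. They are given as ratios of CPM, not corrected for gene length, so only their differences between libraries can be read. The ratio of hexokinase to glucokinase was 0.156, 0.124 and 0.139 in replicates A, B and C at pH 2.0. The pH 4.0 libraries had 0.0956, 0.102 and 0.107, and those of pH 6.0 had 0.145, 0.152 and 0.141. All pH 4.0 libraries were below all others, and pH 2.0 and 6.0 overlapped: hexokinase was lower at pH 4.0 than at pH 2.0, while at pH 6.0 glucokinase was lower as well. The ratio of hexokinase to phosphofructokinase was nearly the same in the libraries of pH 2.0, at 0.163, 0.164 and 0.162, although each gene varied by an SD of 6.32% and 6.83% of its mean there. It was lower in every library of pH 4.0 (0.128, 0.135 and 0.109) and of pH 6.0 (0.125, 0.130 and 0.116).

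For the opposing pair, the ratio of fructose bisphosphatase to phosphofructokinase was 0.291, 0.343 and 0.2996 in replicates A, B and C at pH 2.0. In the pH 4.0 libraries it was 0.410, 0.344 and 0.360, and in those of pH 6.0 0.379, 0.319 and 0.321. The mean was 0.311 at pH 2.0, 0.371 at pH 4.0 and 0.340 at pH 6.0. The pH 4.0 libraries were all above those of pH 2.0, though replicate B of each pH differed only in the third decimal (0.343 and 0.344), and the pH 6.0 libraries overlapped with both.

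**Figure D3:**
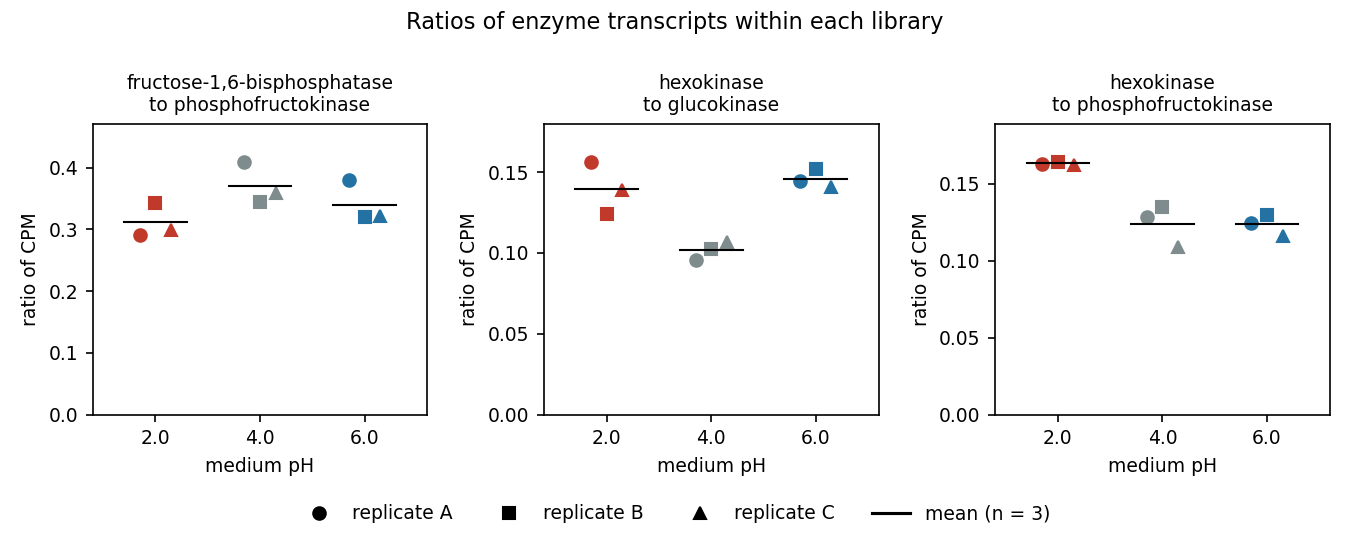
Ratio of CPM of 2 enzymes within each library (y axis, from 0) by medium pH (x axis: 2.0, then 4.0, then 6.0), with 1 marker per library and a line at the mean of 3. Hexokinase to glucokinase is lowest at pH 4.0 (mean 0.102), hexokinase to phosphofructokinase is highest at pH 2.0 (mean 0.163), and fructose bisphosphatase to phosphofructokinase overlaps between pH 6.0 and both other values.

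The composition of the group was also described by setting each gene, on the log2 scale, against the mean of the other 5 in the same library, a measure added after the values had been seen. Quantile normalization was not applied to it. Isomerase was higher relative to the others by 0.29 at pH 4.0 and by 0.69 at pH 6.0 than at pH 2.0. Glucokinase shifted by 0.0013 at pH 4.0 and was lower by -0.53 at pH 6.0, while hexokinase shifted by -0.54 and -0.45. Phosphofructokinase (-0.06 and 0.03) and aldolase (0.07 and 0.07) shifted by less than their SD of 0.11 and 0.12 among the pH 2.0 libraries. The shifts of aldolase were larger than its SD at pH 4.0 (0.04) and at pH 6.0 (0.05). Fructose bisphosphatase shifted by 0.24 and 0.19, against an SD of 0.06 at pH 2.0 and of 0.14 and 0.12 at pH 4.0 and 6.0. The 6 genes together took 0.386% to 0.414% of the summed CPM in the pH 2.0 libraries. The share was 0.383% to 0.408% at pH 4.0, and for pH 6.0 it was 0.359% to 0.381%, so the highest library of pH 6.0 lay just below the lowest of the others.

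Around these enzymes, 20 loci on 5 lists of adjoining steps were read in the same fit, 18 of them measured. Hexose transporters carry the sugar that the kinases phosphorylate. Of the 4 measured members of the Yht family, 2 fell and none rose in each comparison, where 37.9%, 32.6% and 25.8% of all genes were called lower at pH 6.0 against 2.0, pH 4.0 against 2.0 and pH 6.0 against 4.0. Here quantile normalization added 1 higher in both comparisons with pH 2.0. Between pH 6.0 and 4.0 only 1 was called without replicate B or C of pH 4.0 or replicate A or C of pH 6.0. Yht1 (YALI0C06424g) had 209 ± 57.6 CPM at pH 2.0. It fell to 63.7 ± 9.57 CPM in the pH 4.0 libraries and to 40.9 ± 9.496 CPM in those of pH 6.0 (SD, n = 3; log2 -1.67 and -2.31 against pH 2.0, adjusted p = 6.16e-05 and 2.80e-06). Yht4 (YALI0E23287g) was the larger change from pH 4.0 to 6.0 (log2 -0.87, SE 0.24, adjusted p = 0.0128). These differences were larger in size than that of either kinase.

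Lower glycolysis runs from triose phosphate isomerase to pyruvate kinase. Of its 6 genes, 3 were higher and 1 lower at pH 6.0 than at pH 2.0 (2 and 2 with equal totals, 2 and 1 under quantile normalization and without replicate B of pH 2.0 or any 1 library of pH 6.0), where 35.1% of all genes were higher and 37.9% lower. The median log2 difference of the list was 0.14 where that of all genes was -0.04. At pH 4.0, 3 were higher and 0 lower than at pH 2.0 (2 and 1 under both other scalings), against 30.8% and 32.6% of all genes. By DESeq2, and without replicate A of pH 2.0, 4 were higher and 0 lower there. The largest change in both comparisons with pH 2.0 was that of phosphoglycerate mutase (YALI0B02728g), which interconverts phosphoglycerates. It had 562 ± 25.5 CPM at pH 2.0 (SD, n = 3), and rose to 929 ± 55.1 CPM in the pH 4.0 libraries and 1028 ± 42.0 CPM in those of pH 6.0 (log2 0.72 and 0.87 against pH 2.0, adjusted p = 2.14e-05 and 1.93e-06), and was called under each scaling. From pH 4.0 to 6.0 limma called 0 of the 6, where 51.5% of all genes were called, and 1 of the 6 had an unadjusted p under 0.05. Fits of edgeR and DESeq2 on the recovered reads also called 0. With equal totals, or without pH 2.0 replicate A, 1 was called lower there, and under quantile normalization 1 higher.

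The pentose phosphate pathway shares glucose 6-phosphate with the isomerase. All 4 listed genes were called higher at pH 4.0 and at pH 6.0 than at pH 2.0, and 3 at pH 6.0 than at pH 4.0, where 30.8%, 35.1% and 25.7% of all genes were called higher. With equal totals, and likewise under quantile normalization, the counts were 2, 4 and 3. At pH 4.0 the count against pH 2.0 was 3 in 7 of the 9 fits without a single library, in which transketolase was not called. The 3 calls between pH 6.0 and 4.0 dropped to 1 without replicate B of pH 4.0 or without replicate B or C of pH 6.0. They dropped to 2 without replicate C of pH 2.0, replicate A of pH 4.0 or replicate A of pH 6.0. Glucose 6-phosphate dehydrogenase (YALI0E22649g), the entry step, changed most against pH 2.0 (log2 0.76 at pH 4.0 and 1.04 at pH 6.0), and transketolase (YALI0E06479g), which shuffles carbon between sugar phosphates, most from pH 4.0 to 6.0 (0.46, SE 0.08, adjusted p = 0.000666).

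Of the other gluconeogenic enzymes, phosphoenolpyruvate carboxykinase (YALI0C16995g), the entry into gluconeogenesis, was higher at pH 4.0 and 6.0 than at pH 2.0. Its level was 646 ± 55.4 CPM at pH 2.0 (SD, n = 3), with 1280 ± 342 CPM in the pH 4.0 libraries and 1045 ± 227 CPM in those of pH 6.0 (log2 0.95 and 0.68 against pH 2.0, adjusted p = 0.00118 and 0.00739), and kept both calls under equal totals (0.75 and 0.46) and quantile normalization (0.61 and 0.43). Pyruvate carboxylase (YALI0C24101g), which makes oxaloacetate, rose from pH 4.0 to 6.0 (0.46, SE 0.08, adjusted p = 0.00101). Its own difference at pH 6.0 against 2.0 was 0.26 and was called, but not with equal totals (0.043), under quantile normalization (0.034), or without replicate B of pH 2.0 (0.23) or of pH 6.0 (0.22), while at pH 4.0 against 2.0 it was -0.20 and just missed the threshold (adjusted p = 0.0501). That difference was called lower with equal totals, under quantile normalization, by edgeR and by DESeq2 (adjusted p from 0.000739 to 0.187 over its alternatives). The dihydroxyacetone phosphate branch links aldolase's product with glycerol 3-phosphate, and the direction of flow was not measured. Of all genes, 35.1%, 30.8% and 25.7% were called higher at pH 6.0 against 2.0, pH 4.0 against 2.0 and pH 6.0 against 4.0. At this branch, 1 of 2 genes was higher in each of these comparisons. This was the mitochondrial glycerol 3-phosphate dehydrogenase (YALI0B13970g), with log2 0.28 at pH 4.0 and 0.56 at pH 6.0 against pH 2.0, and 0.28 between them; the first was not called with equal totals (0.072) or under quantile normalization (-0.049). The other gene, the NAD+-linked dehydrogenase, was not called under the deposited scaling (log2 -0.06 at pH 4.0 and -0.17 at pH 6.0 against pH 2.0). Equal totals and quantile normalization both called it lower at pH 6.0 than at pH 2.0, and quantile normalization also at pH 4.0.

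**Figure D4:**
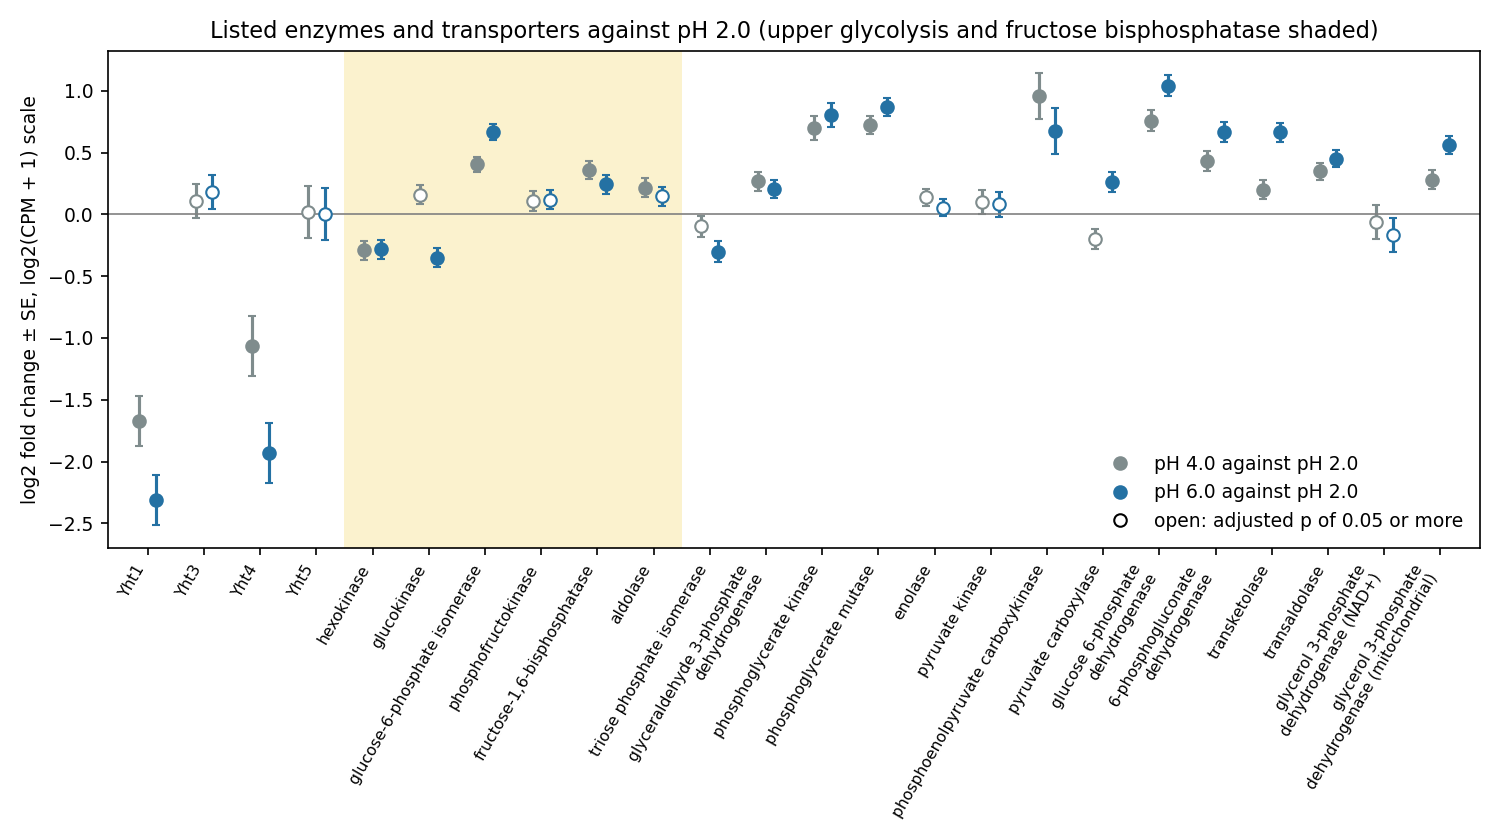
Log2 fold change with its SE on the log2(CPM + 1) scale (y axis) for the 4 measured hexose transporters, the 6 enzymes described here (shaded), and the listed enzymes of lower glycolysis, gluconeogenesis, the pentose phosphate pathway and glycerol 3-phosphate metabolism (x axis), at pH 4.0 (grey) and pH 6.0 (blue) against pH 2.0; open circles have an adjusted p of 0.05 or more. The shaded genes lie between -0.35 and 0.67, Yht1 and Yht4 lie far below 0, and all pentose phosphate genes lie above 0.

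The patterns most like those of the opposing pair were sought among 5345 genes with a mean of at least 10 CPM, by Pearson's r of log2(CPM + 1) over the 9 libraries. These libraries fall into 3 pH groups, and r is given as a description. For phosphofructokinase the closest was YALI0F24893g at r = 0.848, and for fructose bisphosphatase YALI0B08624g at r = 0.989; neither has a name in the table. Phosphoenolpyruvate carboxykinase was among the 100 genes closest to fructose bisphosphatase (r = 0.941), and glyceraldehyde 3-phosphate dehydrogenase (YALI0C06369g), the first step below the triose phosphates, among the 100 closest to aldolase (r = 0.860). None of the 18 listed genes was among the 100 closest to hexokinase, glucokinase, isomerase or phosphofructokinase, and none of the 6 genes was among the 100 closest to another. Yht3, at 2.77 to 3.27 CPM, was below the minimum of 10 CPM and could not be. The r of the 100th gene differed, from 0.663 for phosphofructokinase and 0.835 for aldolase to 0.9785 for isomerase, so these counts cannot be compared between genes. Whether they differ from those of 100 genes drawn at random from the 5345 was not tested.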

How the data were processed

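Cells were broken with glass beads, RNA was DNase-treated, and stranded libraries were read for 101 cycles, per the labels' protocols. The submitters' processing notes name TopHat2 2.0.10 and HTSeq, with edgeR, Trimmomatic 0.30 and bcl2fastq 1.8.4. Their settings, the genome build and whether counting used strand are not given in sources used here, so values of overlapping or near-identical genes are uncertain. Per the file headers, the deposited values are a normalized signal, CPM that the authors divided by effective library size. All values (100%, tolerance 0.01 reads) were whole multiples of 1 read, so reads could be recovered. TMM factors recomputed from these reads matched the deposited scaling.

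The 6165 of 6170 genes that reached 1 CPM in 3 or more libraries were tested as log2(CPM + 1) with limma 3.58.1 (R 4.3.3, mean-variance trend, 1 fit over 9 libraries, 6 residual degrees of freedom); fold changes are on that scale. Benjamini-Hochberg adjustment was over all 6165 genes, two-sided. edgeR 4.0.16 (quasi-likelihood) and DESeq2 1.42.0 ran on the recovered reads as alternatives. Each model was run on simulated data in which a few genes changed, only at pH 6.0, and the library scaling was known. That simulation does not check how calls depend on the scaling. The labels describe separate bioreactors; they give no batch. Members and lists were chosen with earlier results of these data known. All members were named; from each list, the called gene with the largest change per comparison was named, and, of the 2 genes closest in pattern to phosphofructokinase and the 2 closest to fructose bisphosphatase, 1 each, since the table does not name them. Replicate letters were not used as pairs in the main fit. Of the 9 same-letter correlations of deviations, 3 were over 0.1, which does not settle whether the letters mark pairs. The reference table of 8689 RefSeq genes (assembly ASM176148v1) matched 0 of the members, so no sequence or coordinate is given.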

Additional observations from a re-analysis of the deposited data

How the results depend on the processing

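Of 498 values of the 6 genes under alternatives, 470 kept their side of the threshold, 18 lost a call with the same sign, 7 gained one with the same sign and 3 changed sign with a call lost or gained. In all, 23 changed sign (6 with equal totals, 10 under quantile normalization, 7 without a single library), and 20 of these were called neither before nor after. The 3 with a call were fructose bisphosphatase at pH 6.0 against 2.0 (-0.087), and glucokinase (-0.17) and aldolase (-0.13) at pH 4.0 against 2.0. The count of the 6 genes called between pH 4.0 and 2.0 was 2 under equal totals (genes overall 4140). It was also 2 under quantile normalization (genes overall 3670). In the step contrast, the count was 1 at an adjusted p under 0.01 (genes overall 1955) and 1 to 3 without single libraries. There, fructose bisphosphatase lost its call under equal totals (-0.27), quantile normalization (-0.31) and the stricter threshold (-0.47), with -0.61 to -0.40 without single libraries; hexokinase gained one under equal totals (0.50) and quantile normalization (0.37); aldolase ranged from -0.35 to -0.23 without single libraries, with a call without pH 2.0 replicate C. Aldolase was called at pH 6.0 against 2.0 in DESeq2 (0.17) and without pH 2.0 replicate C (0.21), and fructose bisphosphatase at pH 6.0 against 4.0 under quantile normalization (-0.20). Aldolase's call at pH 4.0 was also lost in a fit of the 2 groups and at the stricter threshold. The cause was not tested.

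With the replicate block, 4430 genes were called between pH 6.0 and 2.0 against 4498 without it, and no call of the 6 genes changed. On the lists it left 2 lower-glycolysis genes called higher at pH 6.0 against 2.0, and 3 and 2 pentose phosphate genes at pH 4.0 against 2.0 and pH 6.0 against 4.0. The same-letter correlations ran from -0.20 to 0.27. Deviations from a mean of 3 libraries are tied to each other, so these values cannot decide whether a letter marks a shared batch. edgeR called 4512 genes and DESeq2 4469. No call of the 6 genes changed with a pseudocount of 0.25 or of 5, with the filter removed or raised to 10 CPM, or without the trend.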

Other observations

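Among the 15 pairs of the 6 genes, hexokinase and fructose bisphosphatase deviated most strongly from their pH means in opposite directions (Pearson's r = -0.83 over 9 libraries, after removing the mean of each pH; given as a description, and picked after all pairs had been seen). The library with the lowest hexokinase level of its pH had the highest fructose bisphosphatase level at each pH: replicate B at pH 2.0 (111 and 232 CPM), replicate C at pH 4.0 (92.4 and 306 CPM) and replicate A at pH 6.0 (93.8 and 286 CPM). At pH 4.0 this was nearly a tie, since replicate A had 305.2 CPM of fructose bisphosphatase against 305.6 in replicate C. At pH 4.0 and pH 6.0 replicate B had the highest hexokinase level (104 CPM in both) and the lowest fructose bisphosphatase level (264 and 255 CPM). At pH 2.0 replicate A had the highest hexokinase level (126 CPM). Fructose bisphosphatase was lowest there in replicate C (223.9 CPM, against 224.7 in replicate A). Within-pH r was -0.63 for both glucokinase and isomerase against phosphofructokinase.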
